A study of Mus musculus with 72 samples.

Results

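The enzymes that build triglyceride from glycerol 3-phosphate and the lipases that take it apart were followed in mouse liver through 10 genes, Gpam, Gpat4, Agpat2, Lpin1, Lpin2, Dgat1, Dgat2, Mogat1, Pnpla2 and Pnpla3. They were chosen by name, as the rows of the count table whose Ensembl identifiers carry these symbols, and all 10 were found among the 55573 genes of the table. The questions were how their RNA levels changed over the day, with and without the liver clock, and with and without gut microbes. Livers came from male C57BL/6 mice every 4 h from ZT2 to ZT22, which gave 6 times (ZT, zeitgeber time in hours, with lights on at 0), and RNA was measured by bulk RNA-Seq. All mice carried Bmal1 fl/fl, the loxP-flanked gene of a core activator of the circadian clock. Bmal1 fl/fl mice without Cre are called WT, and Bmal1 fl/fl Albumin-Cre mice, in which Cre is driven by the albumin promoter of hepatocytes, are called LKO. Either genotype was kept under specific pathogen-free conditions with microbes (SPF) or germ free in isolators (GF). The labels give no age. Each of the 4 groups held 18 libraries, 3 per ZT, and there were 72 in all.

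Triglyceride is made stepwise. Glycerol-3-phosphate acyltransferases add the first acyl chain (Gpam at the outer mitochondrial membrane, Gpat4 at the endoplasmic reticulum), the acyltransferase Agpat2 adds the next to give phosphatidic acid, lipins (Lpin1, Lpin2) remove the phosphate to give diacylglycerol, and Dgat1 or Dgat2 adds the last chain, while Mogat1 makes diacylglycerol from monoacylglycerol. Pnpla2 (ATGL) starts the breakdown of stored triglyceride, and Pnpla3 is a lipid droplet protein of the same family. The liver makes triglyceride after feeding for storage in droplets and export in lipoproteins, and its clock, in which Bmal1 binds E-boxes and the REV-ERB receptors bind their own elements, is known to time lipid metabolism.

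Promoter windows of RefSeq (GRCm38.p6), 250 bases before to 50 bases after a start site, were found for 7 of the 10 members, 10 windows in all. They were searched on both strands for the E-box CACGTG, the D-box (TTATGTAA or TTACGTAA), the longer element bound by the REV-ERB receptors and the nuclear receptor half-site AGGTCA, which ends the longer element. The 3 windows with a match are shown, since they belong to the lipins and to Gpam, and capitals mark the match. The 1 E-box lay in a window of Lpin2, with its first base 9 bases before the start site (position -9). The half-site lay at -74 in Lpin1 and at -196 in a window of Gpam. Among all 32851 windows, 7.15% held the E-box, 16.3% the half-site, 1.06% the D-box and 0.219% the longer element. No match for the D-box or the longer element was found in the members' windows, and a match is a description of these letters only.
Lpin2, chr17:71183282-71183581, + strand: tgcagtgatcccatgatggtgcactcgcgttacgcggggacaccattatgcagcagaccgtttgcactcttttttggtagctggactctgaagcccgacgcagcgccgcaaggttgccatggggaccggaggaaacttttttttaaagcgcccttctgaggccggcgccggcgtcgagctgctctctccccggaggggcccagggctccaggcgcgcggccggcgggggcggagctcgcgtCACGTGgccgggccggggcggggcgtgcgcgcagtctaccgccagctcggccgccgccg
Lpin1, chr12:16610917-16611216, - strand: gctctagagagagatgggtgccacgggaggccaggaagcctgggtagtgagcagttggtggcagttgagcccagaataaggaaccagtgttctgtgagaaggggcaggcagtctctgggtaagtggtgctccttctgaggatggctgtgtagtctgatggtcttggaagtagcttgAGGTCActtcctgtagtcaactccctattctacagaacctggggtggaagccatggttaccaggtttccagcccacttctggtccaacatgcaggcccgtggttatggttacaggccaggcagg
Gpam, chr19:55099428-55099727, - strand: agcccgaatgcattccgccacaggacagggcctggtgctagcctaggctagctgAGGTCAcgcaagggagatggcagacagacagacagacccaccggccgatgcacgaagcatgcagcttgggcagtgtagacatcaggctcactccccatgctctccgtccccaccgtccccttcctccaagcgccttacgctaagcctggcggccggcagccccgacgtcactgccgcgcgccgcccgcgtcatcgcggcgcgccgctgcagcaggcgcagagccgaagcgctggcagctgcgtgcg

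The libraries held 17369927 to 22076113 counts. Of the 4 clock genes chosen to check the labels, Npas2, a Bmal1 partner, separated the genotypes in all but 2 libraries. In the libraries labelled SPF LKO ZT14 replicate 2 and SPF LKO ZT18 replicate 1 it stood at 0.221 and 1.83 CPM (counts per 1000000 counts), against 14.4 to 36.4 in the other SPF LKO libraries. Nr1d1, which encodes REV-ERBα, stood at 84.8 CPM in the WT library of SPF ZT14 labelled replicate 3, against 3.07 and 8.55 at that time, and in GF WT ZT6 replicate 3 at 9.39 against 49.1 and 51.1. In the 2 SPF LKO libraries Nr1d1 (5.18 and 1.3 CPM) and Dbp (8.77 and 2.92) lay within the other SPF LKO libraries (0.495 to 10.8 and 1.49 to 11.9). Arntl (Bmal1) stood there at 13.1 and 29.3, against 8.52 to 16.8. All these values also lay within the other SPF WT libraries (Nr1d1 0.754 to 71.7, Dbp 0.569 to 68.5, Arntl 0.626 to 39.5). All 72 libraries were kept. Counts of members called and some results of single members are also given without the doubted libraries among these 4. Markers, gene lists and many fitted peaks are given with all libraries only, and correlations between genes were computed on all 72 only. The 2 SPF LKO libraries matter here. SPF LKO ZT14 replicate 2 was the highest SPF LKO library for 6 members (Gpat4, Lpin1, Lpin2, Dgat1, Dgat2 and Pnpla2), and SPF LKO ZT18 replicate 1 for 3 more (Gpam, Agpat2 and Pnpla3). Of the 8 hepatocyte markers, none was near 0. Alb, whose promoter drives the Cre, had medians of 83700 CPM in SPF WT, 36400 in SPF LKO, 104000 in GF WT and 32200 in GF LKO. It fell by 0.98 (SE 0.15) on the log2 scale in SPF LKO and by 1.70 (SE 0.07) in GF LKO mice, and stood at 83300 and 102000 CPM in the 2 doubted SPF LKO libraries against 24700 to 49900 in the others. Of the other 7 markers, 0 were called in SPF mice and 3 in GF mice (Ttr -0.21, Apoa2 0.21 and Fgb 0.26, log2). The adipocyte markers Adipoq, Lep, Plin1 and Retn had a median of 0 counts in every group.

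Per kilobase of exon, Dgat2 and Agpat2 were the most abundant members in every group and Mogat1 and Pnpla3 the least. In SPF WT liver Dgat2 stood at 142 ± 31.4 CPM per kb (mean ± SD, n = 18) and Agpat2 at 106 ± 27.4. Gpam (48.2 ± 13.8), Gpat4 (37 ± 8.07), Lpin2 (33 ± 12.6), Lpin1 (19.3 ± 14.1) and Pnpla2 (16.4 ± 4.67) followed, and each differed from the next by less than the larger of the pair's SDs. Dgat1, at 6.31 ± 0.893, lay below Pnpla2 by more than either SD. Mogat1 (0.482 ± 0.226) and Pnpla3 (0.184 ± 0.201) came last. In LKO liver of both SPF and GF mice Agpat2 and Dgat2 changed places, at 119 ± 17.1 and 113 ± 26 in SPF LKO, a difference within their SD. Mogat1 had 2 to 32 counts in a library. Pnpla3 had 0 to 36 counts (median 2, 15 libraries at 0) and was left out of the tests over all times by the filter on low counts, so for 9 or fewer members there is a test. A count of 3, the lowest level taken as detected, corresponded to 0.12 to 0.194 CPM.

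**Figure D1:**
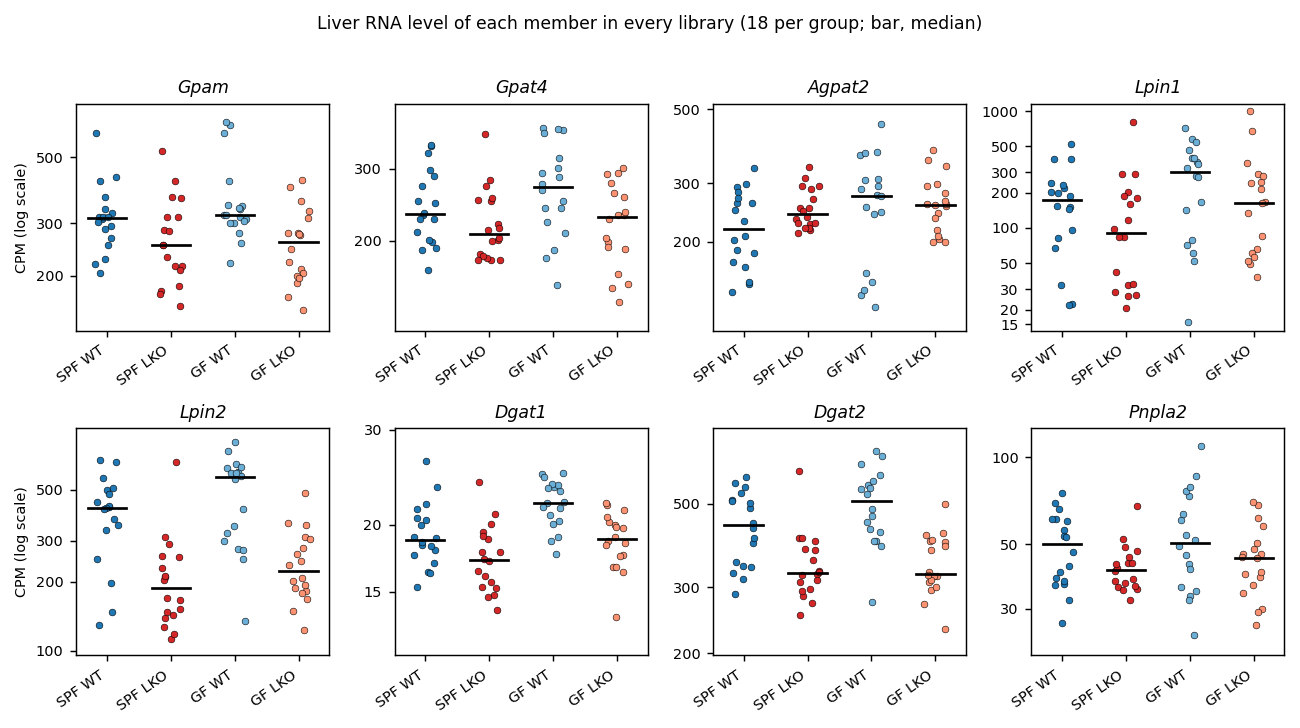
CPM of 8 members (log scale) in each library of the 4 groups, with 18 points per group and the median as a bar. The Lpin2 medians were 418 and 566 CPM in SPF WT and GF WT and 187 and 222 in SPF LKO and GF LKO, while the Agpat2 points of all groups overlap.

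With all times pooled, the members that passed the test were all lower in LKO liver. In SPF mice 3 of the 9 members tested were lower (Lpin2, Dgat2 and Mogat1), where 23.1% of all genes were called and 11.5% were called lower. In GF mice 5 of the 8 tested were lower (Gpam, Gpat4, Lpin2, Dgat1 and Dgat2), where 30.8% of all genes were called and 15.2% were called lower. The median log2 difference over the members tested was -0.24 in SPF and -0.31 in GF mice, beside -0.01 and 0.01 over all genes tested. Mogat1, at 2 to 32 counts in a library, passed the filter on low counts in SPF but not in GF mice, so its call and the SPF median it enters are given as a description only. Without the 2 doubted SPF LKO libraries 5 members were lower in SPF mice, Dgat1 and Pnpla2 being added, where 28% of all genes were called. These counts depend on the libraries. When all libraries with 1 replicate number were left out, the count of members in SPF mice fell to 0 without replicate 1 and to 1 (Lpin2) without replicate 3. Fewer of all genes were called there too, 1711 of 13075 and 1586 of 13022, against 3043 of 13159 with all libraries. In GF mice the count of members fell to 3 without replicate 2 or 3 (Lpin2, Dgat1 and Dgat2). Without replicate 2, 2613 of 12565 genes were called there. With ZT as a factor in the model 6 members were called in SPF mice, of which Agpat2 was higher in LKO liver, beside 3698 of 13159 genes. Whether GF and SPF mice differed in the effect of genotype was tested as an interaction, which edgeR called for 0 of 9 members (0.438% of all genes), with an unadjusted p under 0.05 for none of them, and DESeq2 also called 0. In bulk liver, fewer cells of a type and less RNA per cell cannot be told apart. Of 8 hepatocyte markers 1 (Alb) was lower and 0 were higher in SPF LKO liver. In GF LKO liver 2 (Alb and Ttr) were lower and 2 (Apoa2 and Fgb) higher. Of 6 Kupffer cell markers 4 were lower in SPF LKO and 2 in GF LKO liver, with summed levels of 175 to 451 CPM in SPF WT, 167 to 274 in SPF LKO, 144 to 292 in GF WT and 107 to 250 in GF LKO. Of 5 cholangiocyte markers 1 was higher in SPF LKO and 2 in GF LKO liver, with summed levels of 33.3 to 98.6, 31.2 to 136, 27.3 to 57.7 and 45 to 162 CPM in the same order. Of 6 stellate cell markers 1 was higher and 1 lower in SPF LKO and 2 were higher in GF LKO liver, with summed levels of 292 to 450, 335 to 502, 285 to 436 and 336 to 448 CPM. Of 5 endothelial cell markers 1 was lower in SPF LKO and 1 higher in GF LKO liver, with summed levels of 146 to 190, 120 to 203, 134 to 193 and 135 to 175 CPM. None of these markers had a median of 0 counts, and their part in the members' differences was not tested.

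**Figure D2:**
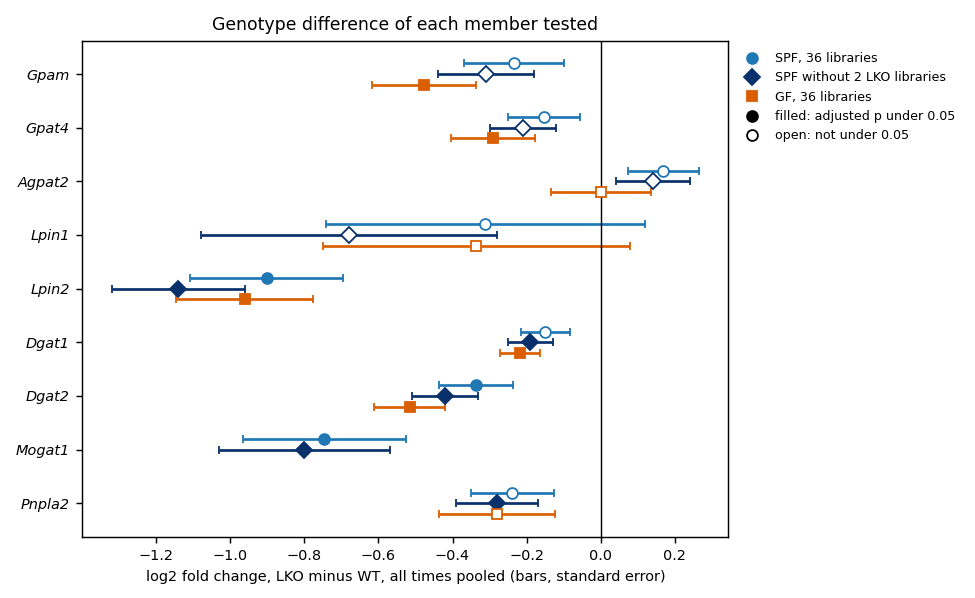
Log2 fold change of each member tested in LKO against WT liver with its standard error, for SPF mice (36 libraries), SPF mice without the 2 doubted LKO libraries, and GF mice (36 libraries). Filled symbols had an adjusted p under 0.05, and Lpin2 and Dgat2 are filled and left of 0 in all 3 sets.

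The glycerol-3-phosphate acyltransferases, which commit glycerol to lipid, were lower in LKO liver at several single times. Gpam (chr19:55067268-55127238, - strand) had a lowest, median and highest level of 204, 313 and 602 CPM in SPF WT and 158, 254 and 524 in SPF LKO. In GF mice these were 221, 321 and 657 in WT and 154, 260 and 418 in LKO. The groups overlapped over the whole day, and the log2 difference was -0.23 (SE 0.14, adjusted p = 0.223) in SPF and -0.48 (SE 0.14, adjusted p = 0.00791) in GF mice by edgeR's quasi-likelihood test. At ZT6 they did not overlap: the 3 SPF WT libraries gave 310, 316 and 302 CPM and the 3 SPF LKO libraries 216, 231 and 216. The GF libraries at ZT6 gave 314, 311 and 334 in WT and 247, 210 and 205 in LKO. The differences at ZT6 were -0.49 (adjusted p = 0.00744) and -0.53 (adjusted p = 0.00282), and both calls were kept with each of the 6 libraries left out in turn. Gpam was also lower at ZT10 in SPF mice (-0.72, adjusted p = 0.0210) and at ZT14 (-0.71, adjusted p = 0.0136) and ZT18 (-0.87, adjusted p = 0.0238) in GF mice. These 3 calls did not hold in every such fit. The adjusted p reached 0.0916 at SPF ZT10, where only leaving out SPF WT replicate 1 kept the call. It reached 0.0609 at GF ZT14 (without GF LKO replicate 1 or 2) and 0.0914 at GF ZT18 (without GF WT replicate 1 or 2, or GF LKO replicate 2 or 3). At ZT18 the GF WT libraries gave 640, 657 and 600 CPM and the GF LKO libraries 418, 276 and 330.

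Gpat4 (chr8:23171265-23208346, - strand) had a lowest, median and highest level of 169, 232 and 343 CPM in SPF WT, 179, 208 and 366 in SPF LKO, 156, 271 and 377 in GF WT and 142, 229 and 301 in GF LKO. Over the whole day it differed by -0.15 (SE 0.10, adjusted p = 0.268) in SPF mice and by -0.29 (SE 0.11, adjusted p = 0.0486) in GF mice, and the GF call was lost without the doubted GF WT library (-0.28, adjusted p = 0.0640). At single times in GF mice the difference was larger. At ZT6 the GF WT libraries gave 241, 250 and 302 CPM and the GF LKO libraries 153, 142 and 156, and at ZT10 they gave 377, 287 and 318 against 166, 203 and 232. All LKO libraries lay below all WT libraries at both times, with differences of -0.82 (adjusted p = 0.000769) and -0.70 (adjusted p = 0.00461) that were kept with each library left out in turn. At ZT14 the difference was -0.49 (adjusted p = 0.0490), a call lost without any 1 of the 6 libraries (adjusted p 0.115 to 0.154). At ZT18 and ZT22 the groups overlapped.

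Agpat2 (chr2:26593057-26604417, - strand, with 64 exon bases shared with Egfl7), the acyltransferase whose loss causes congenital lipodystrophy, was the only member whose difference was above 0 in SPF mice. Its lowest, median and highest levels were 142, 219 and 334 CPM in SPF WT and 212, 242 and 335 in SPF LKO, and 127, 275 and 452 in GF WT and 200, 258 and 378 in GF LKO. The lowest level was higher in LKO liver in both SPF and GF mice, and the difference over the whole day was 0.17 (SE 0.10, adjusted p = 0.212) in SPF and 0.00 (SE 0.14, adjusted p = 0.998) in GF mice. At ZT10 in GF mice Agpat2 was higher in LKO liver, at 200, 257 and 209 CPM against 143, 127 and 152 in WT (0.67, adjusted p = 0.00105), and the call was kept with each of the 6 libraries left out in turn. In SPF mice at ZT6 the LKO libraries (235, 212 and 237 CPM) also lay above the WT libraries (149, 168 and 142), a difference that was not called.

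The lipins make the diacylglycerol that Dgat1 and Dgat2 use. Lpin2 (chr17:71182560-71249817, + strand) had a lowest, median and highest level of 130, 418 and 671 CPM in SPF WT and 113, 187 and 658 in SPF LKO, and of 135, 566 and 801 in GF WT and 123, 222 and 486 in GF LKO. It fell by 0.90 (SE 0.21, adjusted p = 0.00123) on the log2 scale in SPF LKO and by 0.96 (SE 0.19, adjusted p = 8e-05) in GF LKO liver. Without the 2 doubted SPF LKO libraries the highest SPF LKO level was 291 CPM and the difference -1.14 (SE 0.18, adjusted p = 4.14e-06). The LKO mean was the lower at all 6 times in both SPF and GF mice. At SPF ZT6 the WT libraries gave 508, 424 and 417 CPM and the LKO libraries 148, 166 and 152, a difference of -1.54 (SE 0.24, adjusted p = 0.00163). At SPF ZT10 they gave 561, 441 and 413 against 210, 229 and 204 (-1.14, adjusted p = 0.00809). Neither pair of groups overlapped, and both calls were kept with each library left out in turn. In GF mice Lpin2 fell by 1.05 at ZT6 (adjusted p = 0.0124) and by 0.94 at ZT10 (adjusted p = 0.0211), where 1 of 6 leave-outs each ended the call (GF LKO replicate 1 at ZT6, adjusted p = 0.0594, and GF WT replicate 3 at ZT10, adjusted p = 0.0675). At GF ZT6 the groups overlapped, with WT from 278 and LKO up to 280 CPM. The difference was larger at GF ZT14, at -1.83 (SE 0.62, adjusted p = 0.102), and was not called. There the LKO libraries (123 to 201 CPM) lay below the WT libraries (301 to 801).

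Lpin1 (chr12:16535669-16610966, - strand), a lipin that is also a transcriptional coactivator, was the member that varied most between libraries. It ranged from 21.9 to 520 CPM (median 172) in SPF WT, 20.8 to 806 (median 90.6) in SPF LKO, 15.6 to 714 (median 304) in GF WT and 38.3 to 1010 (median 165) in GF LKO. Libraries of the same group and time differed as widely: at ZT22 the GF WT libraries gave 464, 71.7 and 15.6 CPM. The genotype difference was -0.31 (SE 0.43, adjusted p = 0.651) in SPF and -0.34 (SE 0.42, adjusted p = 0.588) in GF mice, within the spread between libraries.

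The diacylglycerol acyltransferases catalyze the last step, and Dgat2 (chr7:99153658-99182719, - strand) was lower in LKO liver of both SPF and GF mice. Its lowest, median and highest levels were 287, 438 and 589 CPM in SPF WT and 253, 327 and 612 in SPF LKO, and 274, 508 and 691 in GF WT and 232, 326 and 499 in GF LKO. It fell by 0.34 (SE 0.10, adjusted p = 0.0116) and by 0.52 (SE 0.10, adjusted p = 4.57e-05) on the log2 scale. The SPF difference was -0.42 (SE 0.09, adjusted p = 0.000352) without the 2 doubted libraries. At ZT10 the SPF WT libraries gave 488, 568 and 589 CPM and the SPF LKO libraries 313, 380 and 323 (-0.70, adjusted p = 0.00168). In GF mice at ZT10 they gave 670, 639 and 691 against 321, 398 and 401 (-0.83, adjusted p = 0.000332). The groups did not overlap at ZT10, and these calls were kept with each library left out in turn. At GF ZT6 the difference was -0.79 (adjusted p = 0.0207), and leaving out GF WT replicate 1 or 2 or GF LKO replicate 2 or 3 ended the call (adjusted p up to 0.0824).

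Dgat1 (chr15:76502015-76511953, - strand), the other enzyme of this step, spanned a narrow range. It lay between 15.3 and 26.2 CPM (median 18.7) in SPF WT, 13.9 and 24.0 (median 17.2) in SPF LKO, 17.6 and 25 (median 22.0) in GF WT and 13.4 and 22.0 (median 18.8) in GF LKO. It differed by -0.15 (SE 0.07, adjusted p = 0.104) in SPF mice and fell by 0.22 (SE 0.05, adjusted p = 0.00192) in GF mice. The LKO libraries lay below the WT libraries without overlap at 5 of 6 times in GF mice and at 1 of 6 in SPF mice. It fell by 0.19 (SE 0.06, adjusted p = 0.0230) in SPF mice when the 2 doubted libraries were left out. At SPF ZT2 it was lower in LKO (-0.40, adjusted p = 0.0273), a call kept in 1 of 6 leave-outs (without SPF WT replicate 3), with adjusted p 0.0735 to 0.107 in the other 5.

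Mogat1 (chr1:78510991-78538173, + strand, 200 exon bases shared with BC035947 on the other strand), which acylates monoacylglycerol, was near the limit of detection. The counting did not use the strand, so reads of the shared bases cannot be told apart. Its lowest, median and highest levels were 0.208, 0.679 and 1.41 CPM in SPF WT, 0.170, 0.400 and 0.992 in SPF LKO, 0.176, 0.547 and 1.84 in GF WT and 0.101, 0.266 and 0.701 in GF LKO, where the lowest values are of the size of the detection limit. The SPF groups overlapped, with a fitted log2 difference of -0.75 (SE 0.22, adjusted p = 0.0114) that rests on these low counts. In GF mice the filter left Mogat1 out of the test over all times. It was tested at single times and called at GF ZT10 (-1.96, adjusted p = 0.0385), a call lost in 3 of 6 leave-outs.

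Of the lipases, Pnpla2 (chr7:141455198-141460743, + strand) had a lowest, median and highest level of 26.9, 50 and 75.1 CPM in SPF WT and 32.1, 41 and 68 in SPF LKO, and of 24.4, 50.6 and 109 in GF WT and 26.5, 45.1 and 70 in GF LKO. The groups overlapped, and over the whole day it differed by -0.24 (SE 0.11, adjusted p = 0.123) in SPF and -0.28 (SE 0.16, adjusted p = 0.183) in GF mice. Without the 2 doubted SPF LKO libraries the SPF difference was -0.28 (SE 0.11, adjusted p = 0.0479), and without all 4 it was -0.24 (SE 0.11, adjusted p = 0.0848). At SPF ZT6 the WT libraries gave 69.6, 60.1 and 61.1 CPM and the LKO libraries 40.5, 41.5 and 42.7. They did not overlap, the difference was -0.62 (SE 0.12, adjusted p = 0.00812), and it was kept with each library left out in turn. At GF ZT10 Pnpla2 was lower (-0.43, adjusted p = 0.0378), a call kept only without GF WT replicate 2 among the 6 leave-outs (adjusted p up to 0.193). Pnpla3 (chr15:84167837-84187236, + strand, 105 exon bases shared with Gm49513) had medians over the day of 0.146 CPM in SPF WT, 0.0632 in SPF LKO, 0.176 in GF WT and 0.0542 in GF LKO, at or under the detection limit. At ZT18 the counts were above it in WT liver, at 21, 11 and 16 in SPF and 8, 6 and 10 in GF mice. The LKO libraries there had 36, 2 and 3 in SPF and 6, 1 and 2 in GF mice. The ZT18 difference was not called (edgeR, -0.39, adjusted p = 0.911 in SPF and -1.56, adjusted p = 0.399 in GF mice). Pnpla3 was not tested for a rhythm. Its highest SPF LKO value, 1.88 CPM, came from the doubted library at ZT18.

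Across single times, the share of members called was highest at ZT6 and ZT10, and so was the share of all genes called. At each time 9 members were tested, and 10 at ZT18. The 4 groups of a time shared 1 estimate of the spread, so the doubted libraries at ZT6, ZT14 and ZT18 entered SPF and GF tests alike. Whether the genotype difference itself changed between times was not tested by these counts. In SPF mice 3 members were called at ZT6 (7.26% of all genes called), 3 at ZT10 (11.9%) and 1 at ZT2 (6.89%), and 0 at ZT14 (0.00%), ZT18 (0.0150%) and ZT22 (3.31%). In GF mice 6 were called at ZT10 (13.1%; Mogat1, with only 2 to 22 counts in a library, is 1 of them), 4 at ZT6 (11.7%), 2 at ZT14 (6.10%) and 1 at ZT18 (8.43%), and 0 at ZT2 (4.21%) and ZT22 (4.44%). The 1 call above 0 was Agpat2 at GF ZT10. At SPF ZT14, where no gene was called by edgeR, leaving out the doubted LKO library alone gave calls for Gpam, Lpin2 and Dgat2, all lower. The share of all genes called in that fit is not given here.

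**Figure D3:**
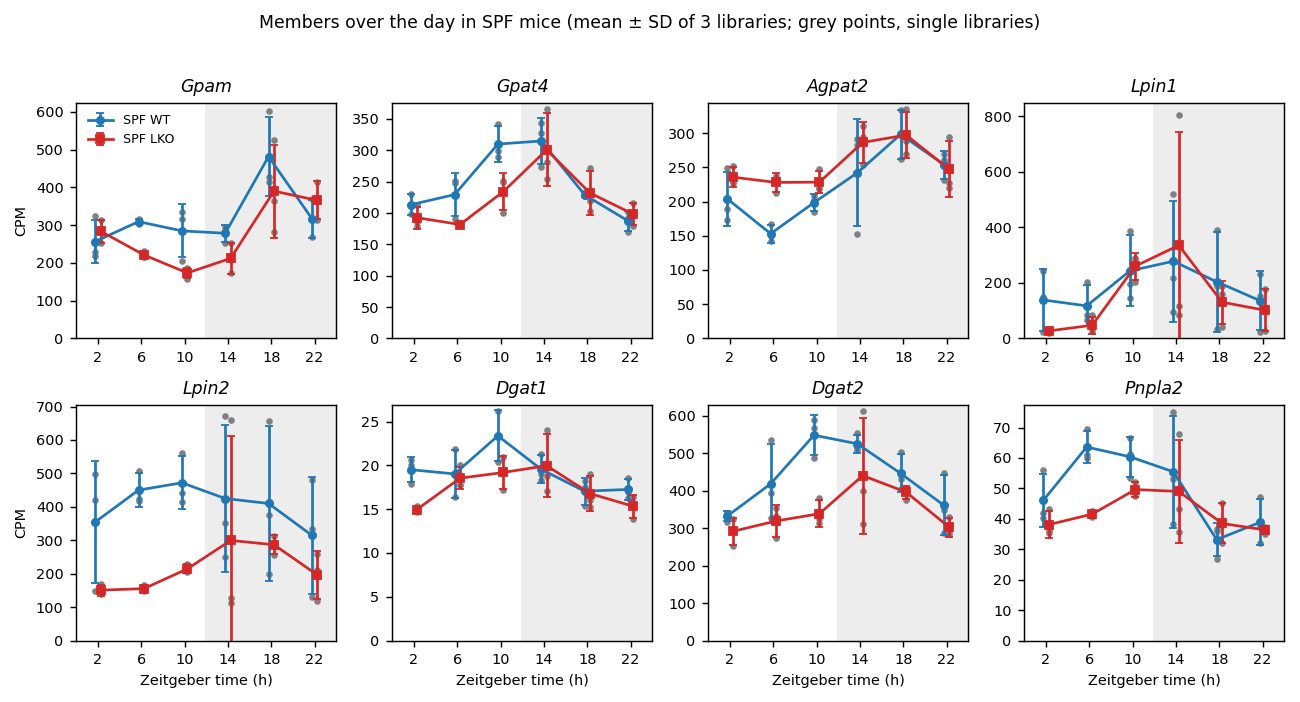
CPM of 8 members against zeitgeber time (h) in SPF WT and SPF LKO mice, as the mean ± SD of 3 libraries with single libraries as grey points; shading marks the dark phase. At ZT14 the widest LKO bars, those of Lpin1 and Lpin2, include replicate 2 at 806 and 658 CPM.

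The 24 h rhythm was tested in each group with a cosine of 24 h period. The calls in SPF LKO mice were the least stable. In SPF WT mice 4 of 9 members tested were rhythmic (Gpat4, Agpat2, Dgat2 and Pnpla2), where 15.5% of all genes were called, and in SPF LKO mice 7 of 9 were (these 4 with Gpam, Lpin1 and Dgat1), where 22.2% were called. In GF WT mice 6 of 9 were rhythmic (the 4 with Gpam and Dgat1; 27.7% of all genes) and in GF LKO mice 7 of 8 (the 6 with Lpin1; 36%). Gpat4, Agpat2, Dgat2 and Pnpla2 were thus called in all 4 groups, and Lpin2 in none. Dgat1 missed the threshold narrowly in SPF WT (adjusted p = 0.0541) and was called without the doubted WT library (adjusted p = 0.0473). Its peak-to-trough difference was 0.35 in SPF WT and 0.42 in SPF LKO (log2). In SPF WT, Dgat1 and Gpam (adjusted p = 0.137) were each called in 2 of 11 alternatives. Lpin2 was called in 3 of 11 alternatives in GF WT (adjusted p = 0.00741 with the replicate block, 0.0121 with no filter on low counts and 0.0345 without replicate 1) and in 1 of 12 in SPF LKO (0.00876 with no filter). The rhythm of Gpat4 in SPF WT and GF WT, and those of Agpat2, Dgat2 and Pnpla2 in GF WT and GF LKO, were called in every alternative run, and so were those of Gpat4 in GF LKO and Gpam in both LKO groups. The SPF LKO calls of Agpat2, Dgat1, Dgat2 and Pnpla2 were called in 7, 8, 5 and 7 of 12 alternatives. Dgat2 was not called there without the 2 doubted libraries (adjusted p = 0.0817). Without replicate 2 the count fell to 1 in SPF WT (Gpat4) and to 1 in SPF LKO (Gpam), and without replicate 1 or 3 it fell to 3 or 2 in SPF LKO. The shares of all genes called in these smaller fits are not given here.

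**Figure D4:**
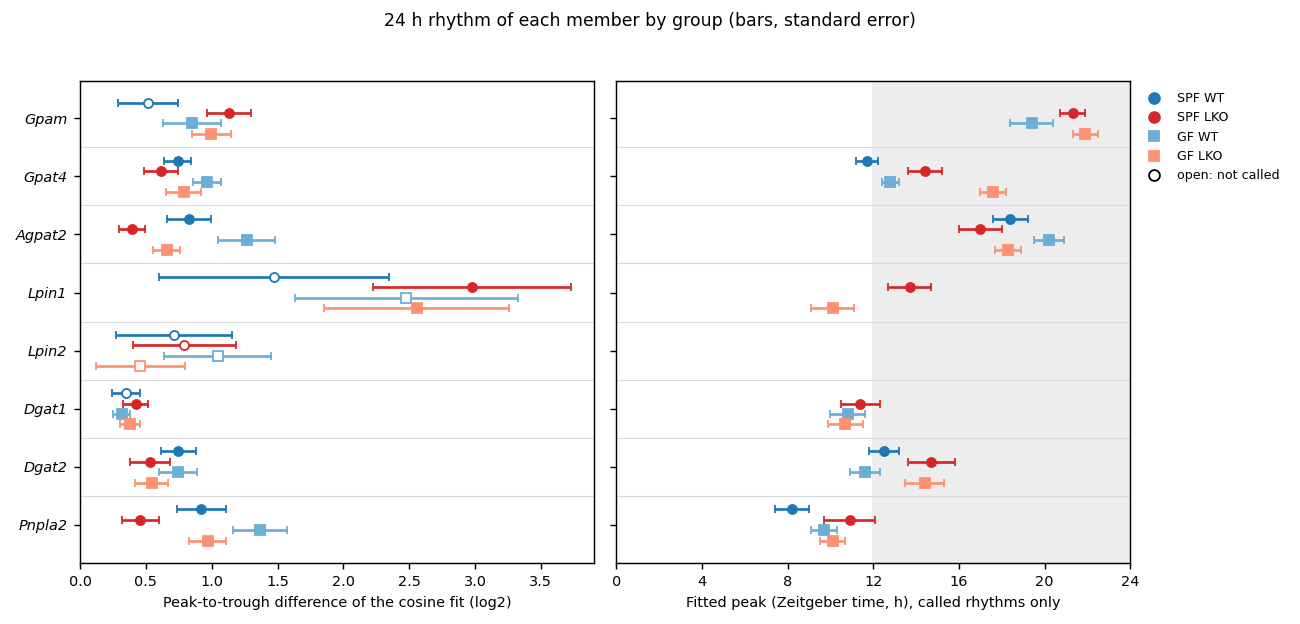
Peak-to-trough difference of the fitted cosine (log2, left) and fitted peak time (zeitgeber time in h, right) of 8 members in 4 groups, with standard errors. Open symbols were not called and have no point on the right; the Gpat4 peak moves from 12.8 h in GF WT to 17.6 h in GF LKO.

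The members that were rhythmic peaked at different times. In WT liver the lipase Pnpla2 peaked in the light phase (ZT8.2 ± 0.8 in SPF and ZT9.7 ± 0.6 in GF, fit ± SE). Gpat4 and Dgat2 peaked around lights off, Gpat4 at 11.7 ± 0.5 and 12.8 ± 0.4 h and Dgat2 at 12.5 ± 0.7 and 11.6 ± 0.7 h. Agpat2 peaked in the dark phase, at 18.4 ± 0.8 h in SPF WT and 20.2 ± 0.7 h in GF WT, and Gpam in GF WT at 19.4 ± 1 h. In LKO liver Agpat2 kept a dark-phase peak (17 ± 1 and 18.3 ± 0.6 h), while its peak-to-trough difference was 0.39 ± 0.10 in SPF LKO against 0.83 ± 0.17 in SPF WT and 0.66 ± 0.10 in GF LKO against 1.27 ± 0.22 in GF WT on the log2 scale. Pnpla2 gave 0.46 ± 0.14 in SPF LKO against 0.92 ± 0.18 in SPF WT and 0.97 ± 0.14 in GF LKO against 1.37 ± 0.21 in GF WT. Dgat2 peaked at 14.7 ± 1.1 h in SPF LKO and 14.4 ± 0.9 h in GF LKO. Gpam gave 1.13 ± 0.17 in SPF LKO, with a peak at 21.3 ± 0.6 h, against 0.52 ± 0.23 in SPF WT. Without the doubted libraries, Agpat2 gave 0.36 in SPF LKO, 0.92 in SPF WT and 1.44 in GF WT. Pnpla2 then gave 0.37, 0.93 and 1.44 in the same order. Gpam gave 1.06 in SPF LKO and 0.54 in SPF WT, and Dgat2 peaked at 14.6 h in SPF LKO. As a scale, the median peak-to-trough difference of all genes called rhythmic was 0.56 to 0.68 in the 4 groups.

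Of these differences, the test of the rhythm itself between LKO and WT called 1. In GF mice Gpat4 changed its rhythm (adjusted p = 0.000126), 1 of the 8 members tested, where 6.38% of all genes were called. It peaked at 12.8 ± 0.4 h in GF WT and 17.6 ± 0.6 h in GF LKO, with peak-to-trough differences of 0.96 ± 0.11 and 0.79 ± 0.13. In GF WT the 3 libraries at ZT14 gave 373, 375 and 367 CPM, the highest mean of the day, and those at ZT2 156, 208 and 182, the lowest. In GF LKO the highest mean was at ZT18, with 236, 301 and 293 CPM, and the lowest at ZT6. The call held in all 10 alternatives, with adjusted p from 2.92e-07 to 0.0164. In GF mice Agpat2 (adjusted p = 0.140) was also called without the doubted GF WT library (adjusted p = 0.00727), and Gpam (adjusted p = 0.276) with ZT as a factor (adjusted p = 0.0336). In SPF mice 0 of 9 members were called by edgeR (1.12% of all genes), and 4 had an unadjusted p under 0.05, Gpam (0.0125), Gpat4 (0.0260), Agpat2 (0.0387) and Pnpla2 (0.0285). DESeq2 also called 0. There Gpat4 peaked at 11.7 ± 0.5 h in WT and 14.4 ± 0.8 h in LKO.

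**Figure D5:**
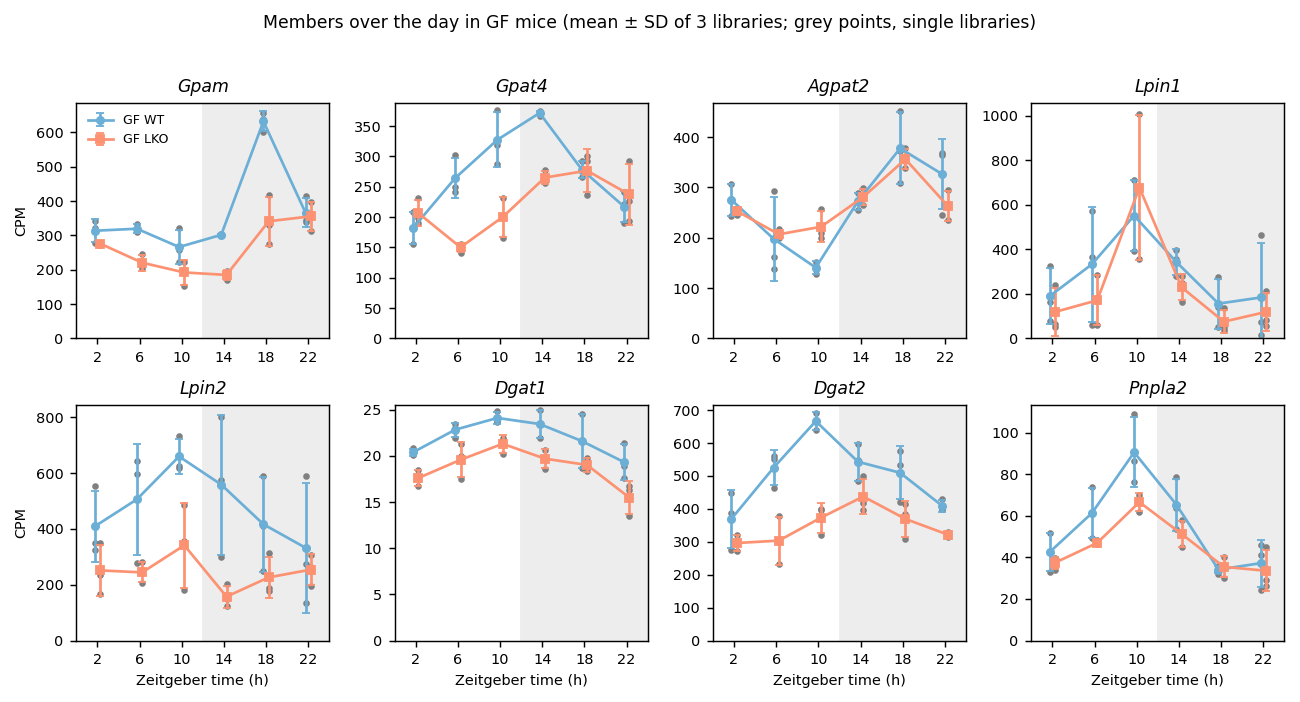
CPM of 8 members against zeitgeber time (h) in GF WT and GF LKO mice, as the mean ± SD of 3 libraries with single libraries as grey points; shading marks the dark phase. The Gpat4 curve of GF WT mice is highest at ZT14 and that of GF LKO mice at ZT18, and the Dgat1 and Dgat2 curves of GF LKO mice lie below those of GF WT mice at all 6 times.

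Lpin1 had the largest fitted swings. Its peak-to-trough difference was 2.98 ± 0.75 on the log2 scale in SPF LKO (peak 13.7 ± 1 h) and 2.56 ± 0.70 in GF LKO (10.1 ± 1 h), both called, and 1.47 ± 0.88 in SPF WT (adjusted p = 0.402) and 2.48 ± 0.85 in GF WT (adjusted p = 0.140), not called. In GF WT, however, Lpin1 was called in 4 of 11 alternatives (adjusted p = 0.0120 with the replicate block, 0.00806 with no filter on low counts, 0.0440 with limma and 0.0209 without replicate 1). The LKO calls were kept in 10 of 12 alternatives in SPF and 8 of 10 in GF mice, and were lost by JTK (adjusted p = 0.0723 and 0.0501) and without replicate 2 (0.204 and 0.0795). At ZT2 the SPF LKO libraries gave 32.3, 28.1 and 20.8 CPM and at ZT10 288, 289 and 204. The SPF WT libraries gave 243, 22.5 and 150 at ZT2 and 388, 146 and 197 at ZT10. The difference in rhythm between genotypes was not called (adjusted p = 0.495 in SPF and 0.858 in GF mice). The SPF LKO value was 2.78 (adjusted p = 0.0193) without the 2 doubted libraries.

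The microbes were then compared. Between GF and SPF mice with all times pooled, 1 of 9 members was called in WT liver, Dgat1, which was higher in GF mice (0.16, SE 0.06, adjusted p = 0.0325), where 31.8% of all genes were called and 14.2% were called higher. Without the 4 doubted libraries its adjusted p was 0.0502, and without replicate 1, 2 or 3 it was 0.0660, 0.176 or 0.129. In LKO liver 0 of 8 were called by edgeR and by DESeq2, with an unadjusted p under 0.05 for none, where 36.4% of all genes were called. Without the 2 doubted SPF LKO libraries Lpin2 was higher in GF LKO than SPF LKO mice (0.42, adjusted p = 0.0318). Rhythms differed between GF and SPF mice for 0 of 9 members in WT (0.0470% of all genes called, no unadjusted p under 0.05) and for 0 of 8 in LKO liver (5.34%), where Gpat4 (0.00541), Lpin1 (0.0167) and Lpin2 (0.0180) had an unadjusted p under 0.05. DESeq2 called 0 and 1 (Gpat4, adjusted p = 0.0408). These comparisons share their samples with the genotype comparisons. Of 8 hepatocyte markers 6 were higher in GF WT than SPF WT liver, such as Apoa1 (0.53) and Serpina1a (0.45, log2). In GF LKO against SPF LKO liver 6 were higher and 1 (Alb) lower. In GF WT liver 2 of 5 cholangiocyte markers were lower, and of 5 endothelial cell markers 1 was higher and 2 lower. No Kupffer or stellate cell marker was called in WT liver. The part of the markers in the members' differences was not tested.

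Other genes of the pathway were counted from lists, beside 23.1% of all genes called in SPF and 30.8% in GF mice. Of 14 other glycerolipid synthesis genes tested, 2 were higher and 4 lower in SPF LKO, and 3 higher and 5 lower in GF LKO, with a median difference of -0.01 and 0.00. Gpat3, another acyltransferase of the first step, fell by 1.43 (SE 0.23, adjusted p = 9.17e-06) in SPF and by 2.67 (SE 0.21, adjusted p = 2.63e-13) in GF mice. Plpp2, a lipid phosphate phosphatase, fell by 0.39 (adjusted p = 0.00423) and 0.55 (adjusted p = 5.74e-05), and Agpat5, a mitochondrial acyltransferase, rose by 0.29 (adjusted p = 0.00104) and 0.40 (adjusted p = 1.81e-06). Of 18 other lipases and lipase regulators tested, 4 were higher and 9 lower in SPF and 3 higher and 11 lower in GF mice (median -0.27 and -0.30). Lpl, the lipase that frees fatty acids from circulating lipoproteins, rose by 4.14 (SE 0.31, adjusted p = 1.59e-12) and 4 (SE 0.16, adjusted p = 3.78e-22) on the log2 scale, and Lipc, the hepatic lipase, by 0.65 (adjusted p = 7.9e-08) and 0.82 (adjusted p = 1.42e-16). Ces1d, a carboxylesterase with near-identical copies whose counts are uncertain, fell by 1.18 (adjusted p = 0.000572) and 2.84 (adjusted p = 3.07e-16), and Lipg, endothelial lipase, by 1.63 (adjusted p = 1.78e-05) and 2.37 (adjusted p = 9.16e-07). The interaction was called for Gpat3 (-1.25, adjusted p = 0.0491), Ces1d (-1.67, adjusted p = 0.000922), Ces1f (-0.85, adjusted p = 3.87e-05) and Ces1g (-0.77, adjusted p = 0.00103), all lower in GF LKO. Of all genes 0.438% were called, and these 4 are named because the count is small. The 2 doubted SPF LKO libraries were kept in this fit, and their part in these 4 calls was not tested.

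Of 13 lipid droplet and VLDL assembly genes tested, 1 was higher and 4 lower in SPF and 1 higher and 5 lower in GF mice (median -0.25 and -0.19). Fitm1, which helps to form droplets, fell by 1.40 (adjusted p = 1.36e-05) and 2.11 (adjusted p = 1.3e-12), Cidec, a droplet fusion protein, fell by 1 (adjusted p = 0.000286) in SPF, Hsd17b13, a droplet enzyme, fell by 0.80 (adjusted p = 2.79e-13) in GF mice, and Bscl2 (seipin) rose by 0.17 (adjusted p = 0.00890) and 0.18 (adjusted p = 0.0386). Of 16 transcription factors and cofactors of lipid synthesis, 2 were higher and 4 lower in both SPF and GF mice (median -0.18 and -0.20). Ppara, the fatty acid receptor of the fasting liver, fell by 0.67 (adjusted p = 1.98e-05) and 0.80 (adjusted p = 1.52e-05), while Insig2, an inhibitor of SREBP activation, rose by 0.91 (adjusted p = 0.000186) and 1.13 (adjusted p = 0.000364). Ppargc1b fell by 0.68 (adjusted p = 0.00369) in SPF and Pparg by 1.09 (adjusted p = 1.32e-05) in GF mice. Of the clock genes 3 of 17 tested were higher and 6 lower in SPF, and 4 of 16 higher and 6 lower in GF mice. Npas2 (3.25 and 2.83) and Cry1 (1.37 and 1.16) rose most and Nr1d1 (-2.93 and -2.80) and Ciart (-2.30 and -3.51) fell most, in SPF and GF mice in that order (adjusted p from 7.99e-06 to 0.00351).

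The genes whose pattern was most like each member were ranked by Pearson's r of mean log2 CPM over the 24 group-by-time means, given as a description. Pnpla2 was most like Gpcpd1 (0.93), Klhl21 (0.92) and Cpt1a (0.92), which encodes the carnitine palmitoyltransferase of the liver. Gpam was most like Lacc1 (0.89), Acacb (0.88) and Pdlim5 (0.87), of which Acacb encodes an acetyl-CoA carboxylase. Lpin2 was most like Mknk2 (0.94), Foxo3 (0.94) and Gne (0.92), and Lpin1 like Pptc7 (0.90), AA986860 (0.88) and Il6ra (0.88). Dgat2 was most like Tor1a (0.95), Aifm2 (0.94) and Fam102a (0.93), and Dgat1 like Timm17a, Slc27a2 and Eif4ebp1 (each 0.91). Agpat2 was most like Ormdl3 (0.92), Dexi (0.91) and Lsm12 (0.91), and Gpat4 like Mcur1 (0.92), Atp6v0a2 (0.90) and Pdhx (0.90). Mogat1 was most like Cers6 (0.86), Blvrb (0.85) and Sh3bgrl2 (0.84). Pnpla3 was most like Crat (0.86), Arhgap35 (0.85) and the member Gpam (0.85).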

How the data were processed

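Liver RNA of 72 male mice was measured by RNA-Seq. Per the authors' notes, reads were aligned with STAR 2.6.1b to mm10 and assigned to Ensembl release 97 genes by featureCounts 2.0.0, without strand and without reads that map to several places. The deposited values are these raw counts, beside each gene's exon length. Libraries were grouped by their labels. The members and lists were chosen with earlier results of these data known. Coordinates are those of GENCODE on GRCm38.

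CPM used TMM scaling. Genes passing edgeR's filterByExpr were tested with edgeR 4.0.16 (R 4.3.3) by quasi-likelihood, and p-values were adjusted by Benjamini-Hochberg over all of them, with a threshold of 0.05. Genotype and microbe differences were fitted on the 36 libraries of both groups with times pooled, single times on the 12 libraries of that time, and rhythms with cosine and sine terms of 24 h. Peak times and peak-to-trough differences came from least squares on log2 CPM (prior count 2). Alternatives used DESeq2 1.42.0, limma 3.58.1, the JTK statistic, other scaling, filters and covariates, and libraries left out. Scripts were tested on simulated data. Nothing in the labels says more than that libraries are separate samples, so p-values measure the spread between them. Genes named from the lists were taken from the 2 largest rises and 2 largest falls per genotype comparison, if their mean log2 CPM was 1 or more. Not all genes that this rule gives were named in the text. Gpat3 in GF mice was added after its values were seen. A gene that this rule names is not reported here. Limits of 3 counts cover counting error only.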

Additional observations from a re-analysis of the deposited data

Results flagged for a closer look

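The rhythm of Gpat4 differed between LKO and WT liver in GF mice by the test of the difference itself (edgeR, adjusted p = 0.000126), with the fitted peak at 12.8 ± 0.4 h in GF WT and 17.6 ± 0.6 h in GF LKO (n = 18 libraries each). The same test in SPF mice gave an adjusted p of 0.304, and whether the change differed between GF and SPF mice was not tested.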

How the results depend on the processing

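Each single-member result was rerun under each alternative, and the runs were counted. For results that were called, 476 runs kept and 95 lost the call. For results not called, 737 runs stayed so, 31 gained a call and 28 changed sign. Scaling by DESeq2 size factors moved no count of members called by over 1.5 times. The counts of members called that moved were these. Without the 2 doubted SPF LKO libraries it was 5 for genotype in SPF mice, 3 at SPF ZT14, 1 at SPF ZT18 (Pnpla3, at 2 to 21 counts) and 1 for microbes in LKO mice, and without all 4 it was 2 at SPF ZT14, 1 at SPF ZT18, 0 and 1 for microbes in WT and LKO mice, and 2 for the rhythm difference in GF mice (Gpat4 and Agpat2). With ZT as a factor it was 6 for genotype in SPF mice, 2 for microbes in WT mice, 3 for the SPF LKO rhythm (also 3 by JTK) and 2 for the GF rhythm difference (Gpat4 and Gpam). DESeq2 gave 2 at SPF ZT2, 2 at GF ZT18 and 1 for the rhythm difference of GF and SPF LKO mice. With no filter on low counts it was 2 at SPF ZT2, 5 at SPF ZT6, 5 at SPF ZT10, 2 at SPF ZT18, 1 at SPF ZT22, 2 at GF ZT2, 4 at GF ZT18, 1 at GF ZT22 and 2 for that rhythm difference. The share of all genes called can move with the setting too. For genotype in SPF mice it was 23.1% with all libraries and 28% without the 2 doubted ones. Such shares are not given beside the counts here and below, so these counts show no change particular to the members. The cause was not tested.

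With libraries left out in turn, the counts that moved ranged from 0 to 1 for genotype in SPF mice, 3 to 3 in GF mice, 0 to 0 for microbes in WT mice, 1 to 3 for the SPF LKO rhythm, 0 to 2 at SPF ZT2, 0 to 1 at GF ZT14 and 0 to 0 at GF ZT18. They were 1 for the SPF WT rhythm (without replicate 2), 3 at SPF ZT14 (without SPF LKO replicate 2), 1 at SPF ZT18 (without SPF LKO replicate 1) and 3 at GF ZT10 (without GF WT replicate 3).

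Over all genes, replicate numbers gave no clear pairing of the libraries. The correlation of same-numbered deviations ran from -0.13 to 0.26 in SPF and from -0.17 to 0.22 in GF mice. It was over 0.1 in 5 and 3 of 18 pairs. Between GF and SPF libraries it ran from -0.12 to 0.37 in WT and from -0.25 to 0.14 in LKO mice, over 0.1 in 6 and 3. Being taken over all genes, this correlation cannot exclude a link to replicate number for single members. With the replicate block the count was 2 for microbes in WT mice (Dgat1 and Dgat2), 1 in LKO mice (Lpin1), 3 at SPF ZT2 and 1 at GF ZT14, and calls were also gained for genotype by Dgat1 in SPF (adjusted p = 0.0411) and Pnpla2 in GF mice (0.0104) and for the GF WT rhythm by Lpin1 and Lpin2.

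Signs changed only where no call was made. For genotype, Agpat2 in GF mice was -0.0041 with DESeq2 and with its size factors, -0.0081 with no filter, and -0.0778 to 0.1317 without 1 replicate number, and Lpin1 was -0.9554 to 0.1382 in SPF and -0.9157 to 0.1821 in GF mice without one. For microbes, Mogat1 in WT was -0.6478 to 0.0362 without one. In LKO mice Gpam was 0.007 and Gpat4 0.0492 without the doubted libraries, and without a replicate number Gpat4 was -0.0326 to 0.0325, Agpat2 -0.0112 to 0.089, Lpin2 -0.0398 to 0.4568 and Dgat2 -0.0758 to 0.1252. For the interaction, Lpin1 was 0.3423 without 2 and 0.1157 without 4 libraries, 0.0442 with ZT as a factor, 0.0827 with the replicate block and -0.6795 to 0.6812 without a replicate number. Lpin2 was 0.1742 and 0.0816 without 2 and 4 libraries and -0.4572 to 0.2375 without a replicate number, and Pnpla2 -0.1023 to 0.051. Depth limits Pnpla3, with a median of 2 counts in a library, and Mogat1, with a median of 9.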

Other observations

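Libraries of the same group and time differed from each other in Lpin1 and Lpin2 together. After the mean of each group and time was removed, Pearson's r between log2 CPM of Lpin1 and Lpin2 over the 72 libraries was 0.86 and Spearman's rho 0.82 (permutation p = 1e-05 for each, the smallest that 100000 permutations within group and time can give; adjusted p = 9.33e-05 and 0.000187 over 28 pairs of 8 members). Without the 2 libraries farthest from the median of Lpin1 r was 0.84, and within the groups it was 0.96 in SPF WT, 0.76 in SPF LKO, 0.86 in GF WT and 0.80 in GF LKO. The SD between such libraries was 1.24 on the log2 scale for Lpin1 and 0.63 for Lpin2, against 0.13 to 0.26 for the other 6 members.

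Agpat2 moved the other way. Its r with Lpin1 was -0.65 (rho -0.65, permutation p = 1e-05 and 2e-05, adjusted p = 9.33e-05 and 0.000187; -0.64 without the 2 farthest libraries), and it was -0.60 in SPF WT, -0.87 in SPF LKO, -0.73 in GF WT and -0.38 in GF LKO. Dgat2 and Pnpla2 rose and fell together between such libraries (r 0.52, rho 0.55, permutation p = 1e-05 and 2e-05, adjusted p = 9.33e-05 and 0.000187; 0.43 without the 2 farthest libraries, and 0.42 in SPF WT, 0.85 in SPF LKO, 0.46 in GF WT and 0.37 in GF LKO). In all, 9 of the 28 pairs had an adjusted p under 0.05 for r. Not all of these did for rho, such as Lpin1 with Pnpla2 (permutation, adjusted p = 0.0356 for r and 0.0901 for rho). The doubted libraries were kept here, and no value without them was obtained. Among them, SPF LKO ZT14 replicate 2 was the highest SPF LKO library for both Dgat2 and Pnpla2. These relations were looked for after the spread of Lpin1 had been seen, and libraries of a pair share their depth and scaling. The part of replicate number in these relations was not tested.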
